A study of Mus musculus with 20 samples.

Results

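The 10 genes described here encode the receptors and secreted ligands of one axon guidance system: the neuropilins Nrp1 and Nrp2, the A plexins Plxna1, Plxna2, Plxna3 and Plxna4, and the class 3 semaphorins Sema3a, Sema3d, Sema3e and Sema3f. They were listed by name, out of 21883 protein-coding genes on chromosomes 1 to 19, X and Y, and every chromatin peak overlapping the gene body or the 50 kb on either side of it was assigned to the gene. This stretch is called the window of the gene. The data are CUT&Tag libraries, in which an antibody tethers a transposase to chromatin so that the DNA next to the target is cut out and sequenced.

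Nuclei came from C57BL/6J mouse embryos at stage E11.5, from tissue labelled CVG, the usual abbreviation for the cochleovestibular ganglion, which gives rise to the auditory and vestibular neurons of the inner ear. All libraries share this strain, age and tissue, the labels name neither a mutation nor a treatment, and they do not say whether embryos were pooled or whether libraries of 1 target came from separate dissections. The antibodies were against ISL1 (a LIM homeodomain transcription factor; 4 libraries, 1 labelled ISL1_26 and 3 labelled ISL1_70), POU4F1 (a POU homeodomain transcription factor; 2 libraries), H3K27ac (a histone mark of active promoters and enhancers; 3 libraries), H3K27me3 (the mark of Polycomb repression; 3 libraries) and H3K4me3 (a promoter mark; 2 libraries). The meaning of 26 and 70 is not given in the sources used here, and lists of the IgG controls did not enter the comparisons. According to its title, the study asks how ISL1 and POU4F1 together govern the differentiation and survival of these neurons.

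Class 3 semaphorins are secreted by tissues around growing axons and mostly repel them. They bind a neuropilin on the growth cone, the neuropilin holds the ligand, and an A plexin in the same complex carries the signal into the cell, where it collapses the actin cytoskeleton. Sema3a acts mainly through Nrp1 and Sema3f mainly through Nrp2, whereas Sema3e can bind a plexin of another class directly; in the inner ear such signals are known to shape the paths and branching of the sensory axons.

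Replicated ISL1 regions, those found in at least 2 libraries, numbered 36 in the 6 neuropilin and plexin windows and 5 in the 4 semaphorin windows. Nrp2 and Plxna1 held 21 of the 36, whereas Plxna3 had none. Nrp1 had 1 region, and its density of 0.405 per 100 kb lay within the range of the semaphorins, 0.173 to 0.775. Most of the receptor regions, 29 of 36, overlapped an H3K27ac peak of at least 1 library, against 1 of 5 semaphorin regions. Of the replicated ISL1 regions outside these windows, 67.2% did. H3K27ac peaks of at least 2 libraries overlapped 20 of the 41 regions (48.8%, against 46.6% of those outside), all 20 in receptor windows. Within 1 kb of the gene start, or of either gene end for Plxna1, Plxna4 and Sema3f, H3K27ac peaks were found in all 3 libraries at 7 genes, the 6 receptors and Sema3f. This was 4 of 7 genes by the start (21.7% of all genes) and 3 of 3 by the ends (20.6%). H3K27me3 peaks were found there in at least 2 libraries also at 7 genes, the receptors Nrp1, Nrp2, Plxna1 and Plxna4 and the ligands Sema3d, Sema3e and Sema3f. By the start it was 4 of 7 genes (18.5% of all genes), and by the ends 3 of 3 (20.6%). At Plxna1 it rests on weak peaks that do not overlap each other, and with a −log10 q of at least 2 the genes were 6. Of the 7 genes, Sema3d and Sema3e had no replicated H3K27ac there. These are descriptions of chosen genes, with no test of receptors against ligands.

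Start sites and 300-base promoters (250 bases before the start and 50 after it) were given by RefSeq, assembly GRCm38.p6, for 7 of the 10 genes. The 4 printed here were chosen because each carries a different state: Nrp2 both marks, Plxna3 H3K27ac without H3K27me3, Sema3d replicated H3K27me3 without H3K27ac over the printed bases, and Sema3a neither mark. The Sema3a start given there lies 272 kb inside the annotated gene, whereas those of the other 6 genes lie within 1 kb of its first base. All are on the plus strand, written 5′ to 3′, and capitals mark CG dinucleotides, the sites of DNA methylation.

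Nrp2, chr1:62703067-62703366: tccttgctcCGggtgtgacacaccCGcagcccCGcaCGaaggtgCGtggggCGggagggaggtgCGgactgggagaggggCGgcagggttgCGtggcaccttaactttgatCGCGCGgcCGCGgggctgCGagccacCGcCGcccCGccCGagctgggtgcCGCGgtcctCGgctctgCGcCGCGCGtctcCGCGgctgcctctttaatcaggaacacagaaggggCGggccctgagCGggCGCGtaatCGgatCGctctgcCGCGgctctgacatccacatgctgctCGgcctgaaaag
Plxna3, chrX:74328816-74329115: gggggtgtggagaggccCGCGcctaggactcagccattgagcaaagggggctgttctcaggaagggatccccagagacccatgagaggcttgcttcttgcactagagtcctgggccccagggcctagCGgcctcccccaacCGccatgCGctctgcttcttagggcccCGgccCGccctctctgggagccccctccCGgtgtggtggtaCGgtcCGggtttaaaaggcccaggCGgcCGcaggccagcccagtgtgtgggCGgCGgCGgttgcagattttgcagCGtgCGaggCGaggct
Sema3d, chr5:12382916-12383215: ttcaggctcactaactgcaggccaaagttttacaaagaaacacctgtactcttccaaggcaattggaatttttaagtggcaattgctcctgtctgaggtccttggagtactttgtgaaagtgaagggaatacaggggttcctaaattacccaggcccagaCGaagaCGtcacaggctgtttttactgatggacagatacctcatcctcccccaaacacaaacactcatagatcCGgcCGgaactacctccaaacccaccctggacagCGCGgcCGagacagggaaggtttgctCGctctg
Sema3a, chr5:13396534-13396833: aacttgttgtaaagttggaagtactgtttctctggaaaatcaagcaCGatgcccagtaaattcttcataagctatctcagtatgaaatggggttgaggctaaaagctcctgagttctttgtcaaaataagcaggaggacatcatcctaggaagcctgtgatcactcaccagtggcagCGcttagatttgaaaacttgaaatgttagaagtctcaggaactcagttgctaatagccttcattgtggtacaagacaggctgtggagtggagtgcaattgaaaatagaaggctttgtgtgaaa

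The Nrp2 promoter held 37 CG dinucleotides at 70.7% GC, and the Plxna3 promoter 18 at 67.7% GC. Sema3d held 8 at 49.7% GC and Sema3a 2 at 41.3% GC, against a median of 7 and 52.7% over 32851 RefSeq promoters. Of the promoters not printed, Plxna2 had 25 CG dinucleotides, Nrp1 14 and Sema3e 11, so the 4 receptor promoters with a sequence had 14 to 37 and the 3 semaphorin promoters 2 to 11. Homeodomain core letters were searched on both strands. The letters TAATTA stood in 5.29% of all promoters, the letters CTAATGG in 2.00%, the letters CTAATTG in 1.98% and TAATTAA, which contains the first motif, in 3.07%, and none of the 7 promoters held any of them. The absence says only that these letters do not stand in these 300 bases.

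Some properties of the lists bear on what follows. List length ran from 24573 to 95719 peaks for ISL1, 29096 to 34249 for POU4F1, 8855 to 168144 for H3K27ac, 14140 to 39310 for H3K27me3 and 15785 to 22425 for H3K4me3, and the read depth behind each list is unknown. The library labelled H3K4me3 replicate 1 shared covered bases with H3K27me3 replicate 2 at a Jaccard index (shared over combined bases) of 0.742 and with H3K4me3 replicate 2 at 0.0360, so it goes against its label and H3K4me3 is read from replicate 2. H3K27me3 replicate 1 stood apart from H3K27me3 replicates 2 and 3, with indices of 0.0811 and 0.0506 against 0.471 between the other pair. Its indices with H3K4me3 replicate 2 (0.0773) and H3K27ac replicate 1 (0.0751) lay between 0.0506 and 0.0811. So this list was no nearer to both libraries of its own target than to those of other marks. In the check of the tissue, H3K27ac lay near the start in at least 2 libraries at 8 of 8 neuronal, 3 of 4 glial or neural crest, 0 of 4 mesenchymal, 3 of 4 otic epithelial and 1 of 4 endothelial marker genes. Of all genes, 48.4% had it by the start site and 50% by either gene end. For H3K27me3 the counts were 6 of 8, 3 of 4, 4 of 4, 3 of 4 and 1 of 4 in the same order, against 18.5% and 20.6% of all genes. Many neuronal markers thus carried both marks. The ganglion holds several cell types, so a mark in few cells and a weak mark in many cannot be told apart.

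**Figure D1:**
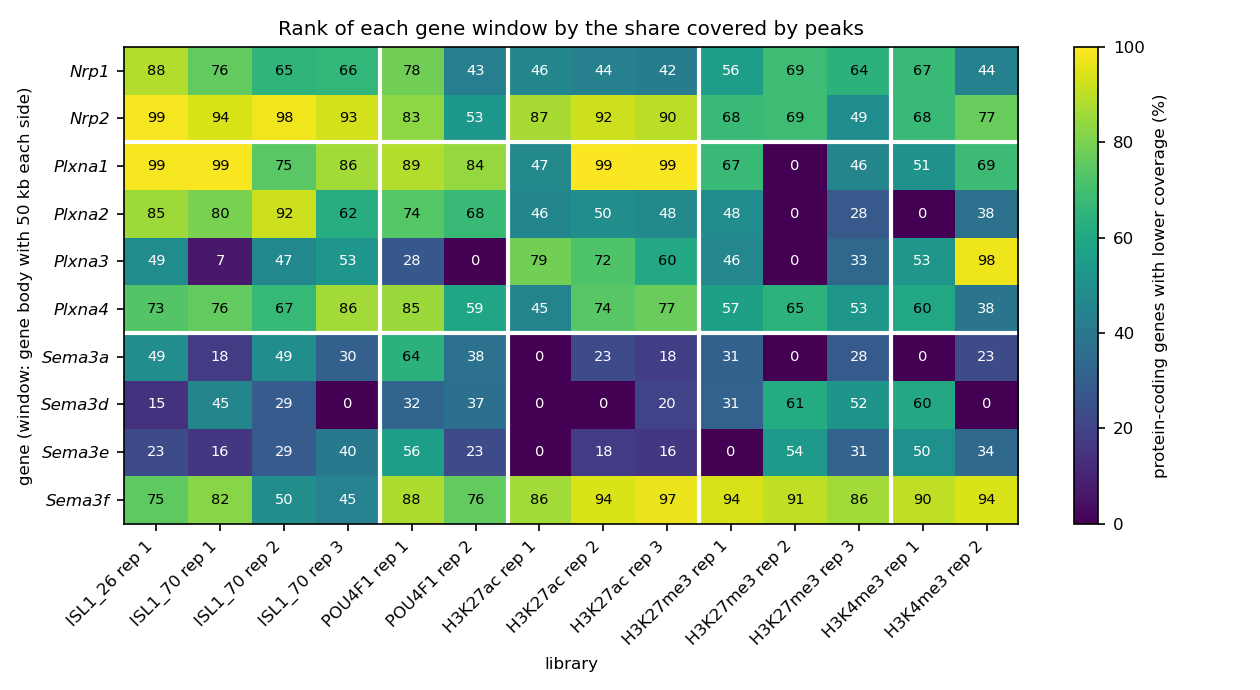
Rank of each gene window in each of 14 libraries (columns, grouped by target; rows are genes), as the percentage of 21883 protein-coding genes whose windows are covered by peaks to a lower share. Nrp2 stands between 93.0 and 98.8 in the 4 ISL1 libraries, and Sema3d between 0 and 45.4.

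To set genes side by side despite the unequal lists, each window was ranked within its library by the share of its bases covered by peaks. The plot of these ranks shows high ISL1 coverage at Nrp2 and Plxna1 and, at Sema3a, Sema3d and Sema3e, coverage below that of the middle gene in all 4 ISL1 libraries.

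Nrp2, at chr1:62703317-62818692, encodes the receptor that prefers Sema3f. Its window held 27 ISL1 peaks in ISL1_26 replicate 1 and 19, 8 and 10 in ISL1_70 replicates 1 to 3, and 5 and 3 POU4F1 peaks. More genes were below it than above in every ISL1 library, since 98.8%, 94.3%, 97.7% and 93.0% of genes had lower coverage. The 2 POU4F1 libraries placed it at 83.1% and 53.5%.

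All 13 replicated ISL1 regions of Nrp2 lay within the gene body, and 10 of them overlapped an H3K27ac peak. At 6.04 regions per 100 kb, its density exceeded that of 99.3% of genes, whose median was 0.809. The regions were spread along the gene. They included 3 in its first 4.52 kb, a stretch that also carried both histone marks, and a pair in the middle of the gene that was found in all 4 ISL1 libraries. The first of that pair, chr1:62753334-62755229, is centred 51.0 kb inside the gene and also held a peak of POU4F1 replicate 1. In ISL1_26 replicate 1 its peak had the authors' fold enrichment of 44.8 and stood at the best 0.740% of the list by q value, and in ISL1_70 replicates 1 to 3 the peaks stood at the best 4.83%, 2.99% and 2.53%. H3K27ac replicate 2 had one of its own strongest peaks there, at the best 1.89% of its list. The second, chr1:62759612-62760679, stood at the best 4.49% in ISL1_26 replicate 1 and at 0.818%, 14.3% and 1.04% in ISL1_70 replicates 1 to 3, under H3K27ac peaks of replicates 2 and 3 and without a POU4F1 peak.

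Nrp1, at chr8:128358591-128505476, is the receptor that prefers Sema3a and also binds vascular endothelial growth factor. Peaks of ISL1 numbered 21 in ISL1_26 replicate 1 and 11, 3 and 5 in ISL1_70 replicates 1 to 3, and POU4F1 peaks 5 and 2. In the ISL1 libraries, in the same order, 88.3%, 76.0%, 65.4% and 66.2% of genes had lower coverage. Yet a single replicated ISL1 region stood in the window, 0.405 per 100 kb, below the median of all genes. That region, chr8:128541068-128542755, lies 35.6 kb beyond the gene and 183 kb from the start site, and no other protein-coding gene falls in the window.

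It was found in all 4 ISL1 libraries and was strong in each: the peaks stood at the best 6.25% of the list in ISL1_26 replicate 1 and at the best 1.73%, 0.834% and 2.24% in ISL1_70 replicates 1 to 3. A POU4F1 replicate 1 peak at the best 4.62% of its list overlapped it, as did H3K27ac peaks of replicates 2 and 3. A replicated H3K27ac region, chr8:128538627-128539698, ends 1.37 kb from it and was the strongest H3K27ac peak of the whole Nrp1 window in both of those libraries. So the 2 neuropilins differ in layout, Nrp2 with many regions inside the gene and Nrp1 with 1 distant region.

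**Figure D2:**
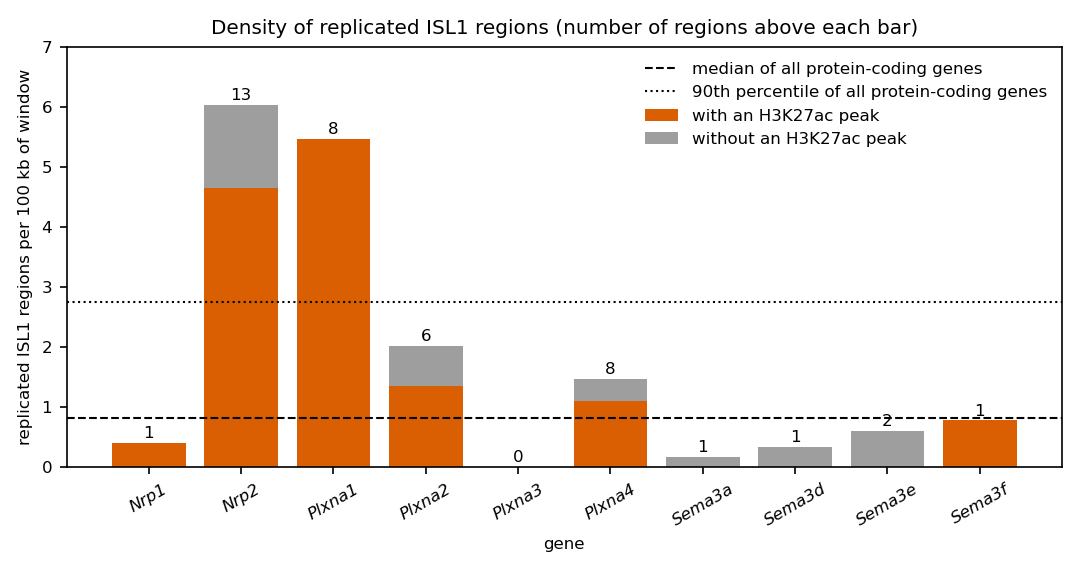
Replicated ISL1 regions per 100 kb of window for each gene (bars, y axis from 0; orange part, regions with an H3K27ac peak; grey part, without; the number of regions stands above the bar), with the median and 90th percentile of all protein-coding genes as lines. Nrp2 (6.04) and Plxna1 (5.47) stand above the 90th percentile of 2.75, while the receptors Nrp1 (0.405) and Plxna3 (0) and the 4 semaphorins lie below the median of 0.809.

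Among the A plexins, the signalling coreceptors, Plxna1 had the densest ISL1 regions. The gene lies at chr6:89316313-89362613, and its window also takes in Gm40415 and Chchd6. ISL1 peaks numbered 15 in ISL1_26 replicate 1 and 19, 3 and 6 in ISL1_70 replicates 1 to 3, and POU4F1 peaks 5 and 3. All 8 replicated ISL1 regions overlapped an H3K27ac peak, and 6 of them H3K27ac in at least 2 libraries. Only 2 lay in the gene body. The region called in all 4 ISL1 libraries, chr6:89285759-89287639, is 28.7 kb outside the gene, and chr6:89310506-89312078, in 3 of the libraries and under a POU4F1 replicate 1 peak, is 4.24 kb outside it.

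Plxna4, at chr6:32144543-32588192, is a partner of Nrp1 in Sema3a responses of sensory axons. Its long window held 25 ISL1 peaks in ISL1_26 replicate 1, 27, 7 and 17 in ISL1_70 replicates 1 to 3, and 14 and 6 POU4F1 peaks. All 8 replicated ISL1 regions were in the gene body, at 1.47 per 100 kb, which exceeds 72.0% of genes. Among them was chr6:32179406-32180763, absent from ISL1_70 replicate 2 but at the best 4.07% of the list in ISL1_26 replicate 1 and at the best 2.80% and 0.372% in ISL1_70 replicates 1 and 3. A pair of POU4F1 replicate 1 peaks overlapped it, at the best 3.53% and 4.84% of that list, together with H3K27ac peaks of replicates 2 and 3.

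Plxna4 was also the only one of the 10 genes with a replicated POU4F1 region, chr6:32376714-32378057, in its gene body, and 3.98% of all genes had one. Its POU4F1 peaks were of modest rank, at 67.9% and 74.6% of their lists, and overlapped H3K27ac peaks but no ISL1 peak. The 2 POU4F1 peaks overlap by 35 bp, and with windows of 250 bp around the summits the region is no longer shared.

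Plxna2, at chr1:194619791-194816869, another receptor subunit for secreted and transmembrane semaphorins, had 14 ISL1 peaks in ISL1_26 replicate 1 and 17, 8 and 6 in ISL1_70 replicates 1 to 3, with 6 and 5 POU4F1 peaks. Of its 6 replicated regions, 4 held an H3K27ac peak and 1 a POU4F1 peak, and the one in most libraries, 3 of 4, was chr1:194587729-194589083, located 30.7 kb outside the gene. Plxna3, at chrX:74328290-74344689, which pairs with Nrp2 for Sema3f, was the exception among the receptors. It had 4 ISL1 peaks in ISL1_26 replicate 1 and 1, 1 and 2 in ISL1_70 replicates 1 to 3, with 1 and 0 of POU4F1, and no ISL1 peak overlapped one of another library. The window of this short gene holds 11 other protein-coding genes, so its peaks cannot be assigned to Plxna3 alone.

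**Figure D3:**
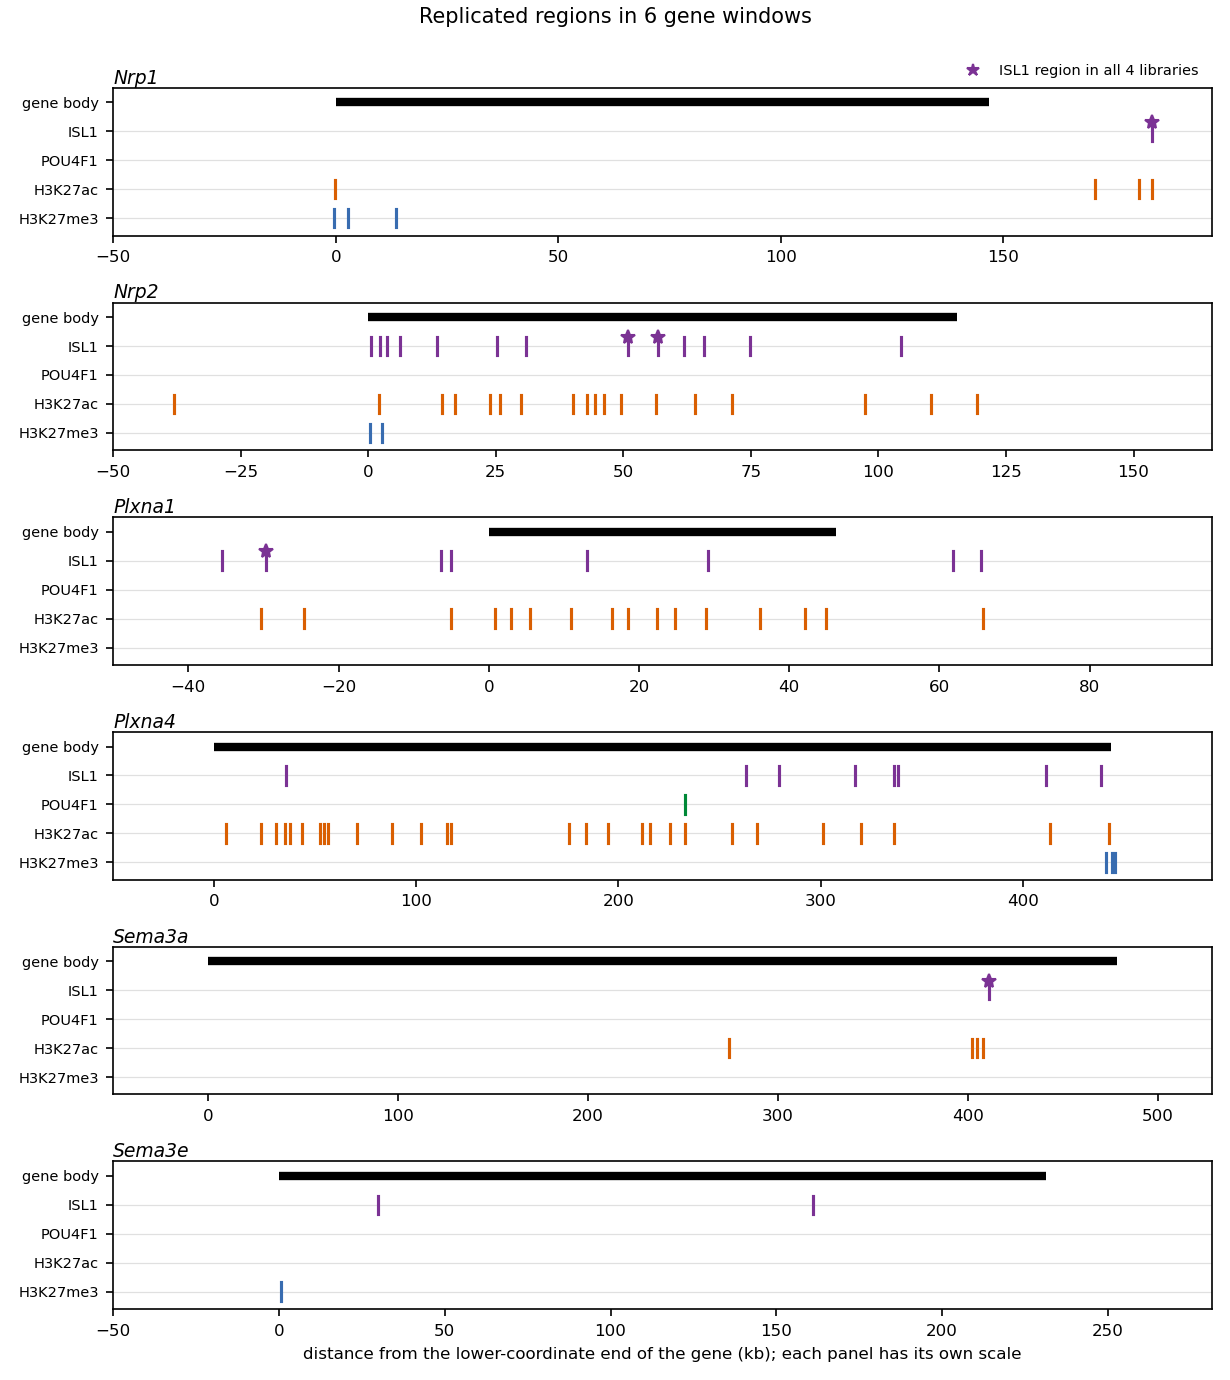
Replicated regions of ISL1, POU4F1, H3K27ac and H3K27me3 (vertical ticks, 1 row a target) in 6 gene windows, against the distance in kb from the lower-coordinate end of the gene (black bar, gene body); stars mark ISL1 regions in all 4 libraries. The 1 ISL1 region of Nrp1 lies beyond the gene, the 13 of Nrp2 lie within it, and the 2 of Sema3e have no H3K27ac region near them.

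The semaphorin ligands showed few ISL1 regions. Sema3a, at chr5:13124822-13603485, encodes the ligand that repels Nrp1-bearing axons. ISL1 peaks in its window numbered 20 in ISL1_26 replicate 1 and 9, 3 and 5 in ISL1_70 replicates 1 to 3, and POU4F1 peaks 10 and 4. In a window of 579 kb these are low densities, and 49.1%, 17.7%, 49.1% and 30.5% of genes had lower ISL1 coverage.

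The only replicated ISL1 region of Sema3a was chr5:13534847-13536855, in the gene body 139 kb from the start site and present in all 4 ISL1 libraries. Its peaks stood at the best 3.75% of the list in ISL1_26 replicate 1 and at 0.762%, 31.1% and 38.0% in ISL1_70 replicates 1 to 3. POU4F1 replicate 1 had a weak peak there, at 93.4% of its list. No H3K27ac peak overlapped it, but 3 replicated H3K27ac regions lay 1.78 to 7.19 kb away on its lower side.

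Sema3d, at chr5:12383161-12588953, and Sema3e, at chr5:14025276-14256689, are 2 further secreted ligands from the same stretch of chromosome 5. Sema3d had 4 ISL1 peaks in ISL1_26 replicate 1 and 11, 1 and 0 in ISL1_70 replicates 1 to 3, with 2 and 2 POU4F1 peaks. Sema3e had 8 ISL1 peaks in ISL1_26 replicate 1 and 5, 1 and 4 in ISL1_70 replicates 1 to 3, with 4 and 1 of POU4F1. Neither gene had a replicated H3K27ac region in its window. Their ISL1 regions, 1 at Sema3d and 2 at Sema3e, were each found in 2 libraries and overlapped none of the other targets. The Sema3d region, chr5:12381048-12381797, ends just short of a replicated H3K27me3 region, chr5:12381832-12386104, which covers the start site.

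Sema3f, at chr9:107681499-107710475, encodes the ligand of Nrp2. The window had 8 ISL1 peaks in ISL1_26 replicate 1 and 8, 1 and 2 in ISL1_70 replicates 1 to 3, and 4 and 1 POU4F1 peaks. In the ISL1 libraries, in the same order, 75.2%, 82.2%, 49.5% and 44.5% of genes had lower coverage. Its density of ISL1 regions, 0.775 per 100 kb, was near the median of 0.809. Sema3f was also unlike the other ligands in its histone marks, with 15 replicated H3K27ac and 4 replicated H3K27me3 regions. The window also holds Gnai2, Slc38a3, Gnat1 and Rbm5, so its own marks and theirs cannot be told apart. Its only replicated ISL1 region, chr9:107710021-107710879, spans the upper end of the gene.

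Set against all genes, 9 of the 10 had a replicated ISL1 region in the window (62.1% of all genes), 8 a replicated H3K27ac region (77.2%), 6 a replicated H3K27me3 region (50.4%) and 6 a replicated H3K4me3 region (20.1%). The H3K4me3 count rests on the library labelled replicate 1. Without that library, the list of H3K4me3 replicate 2 alone had a peak in 9 windows (80.3% of all genes). The windows differ in length, and longer windows have more chances to hold a region.

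The 41 replicated ISL1 regions of the 10 windows resembled the other 20372 in what overlapped them. An H3K27ac peak was found at 73.2% of the member regions and 67.2% of the others, an H3K27me3 peak at 14.6% and 16.1%, and a POU4F1 replicate 1 peak at 17.1% and 14.4%. POU4F1 replicate 2 overlapped 0 of the 41, against 3.49% of the others. Of the 5 member regions in all 4 ISL1 libraries, 3 held a POU4F1 replicate 1 peak, at Nrp1, Nrp2 and Sema3a, and among the other regions in all 4 libraries 34.4% did. None of these overlaps is present in both POU4F1 libraries. Those 2 lists, of 34249 and 29096 peaks, gave only 545 replicated regions over the whole genome. The lack of sharing is therefore not particular to these genes, and the POU4F1 overlaps named here rest on replicate 1.

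Leaving out libraries changed both the number of regions and their division between receptors and ligands. The receptor windows held 13 regions and the semaphorin windows 1 without ISL1_26 replicate 1, and 15 and 4 without ISL1_70 replicate 1. With a demand for at least 3 libraries the numbers were 10 and 1. In each of these counts the density per 100 kb was higher in the receptor windows, at 0.830, 0.958 and 0.639, than in the semaphorin windows, at 0.0744, 0.297 and 0.0744.

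**Figure D4:**
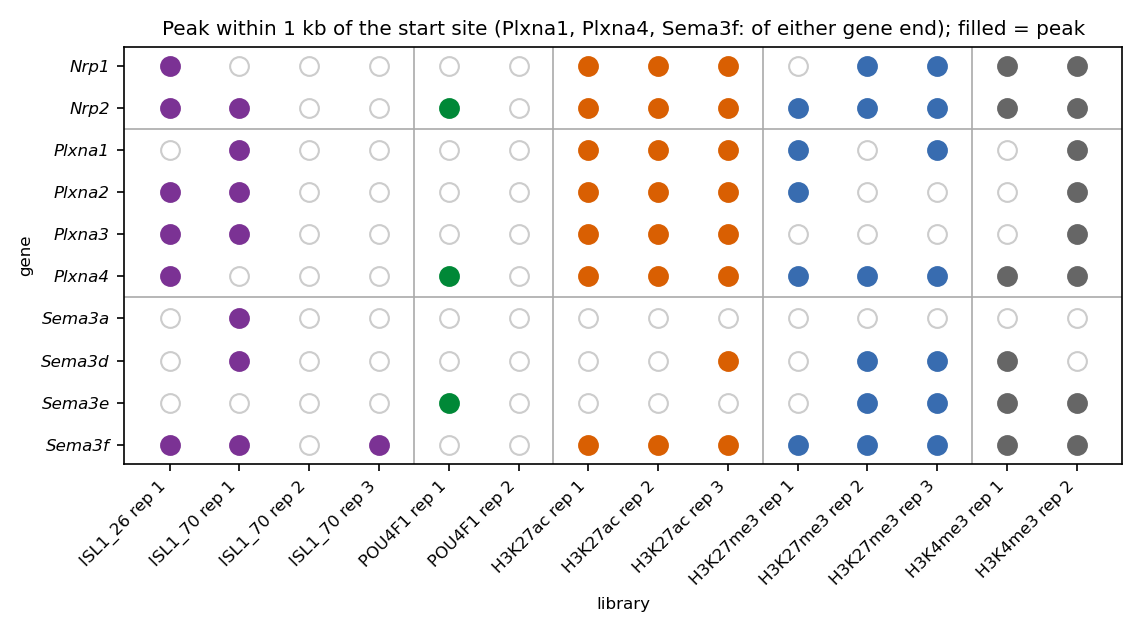
Presence of a peak (filled circle) within 1 kb of the start site of each gene, or of either gene end for Plxna1, Plxna4 and Sema3f, in each of 14 libraries (columns, grouped by target). H3K27ac is filled in all 3 libraries at 7 genes, and both H3K27ac and H3K27me3 are filled in at least 2 libraries at 5 genes.

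The number of mark peaks in a window varied with the library. H3K27ac peaks ran from 0 to 4 a gene in replicate 1, from 0 at Sema3d to 72 at Plxna4 in replicate 2, and from 6 at Sema3e to 88 at Plxna4 in replicate 3. Next to Plxna4 came Plxna1 with 1, 32 and 40, Nrp2 with 2, 39 and 39 and Sema3f with 4, 35 and 32 in replicates 1 to 3. H3K27me3 peaks were fewer, at 0 to 8 a gene, with 8, 4 and 8 at Sema3f. Plxna1, Plxna2, Plxna3 and Sema3a had no H3K27me3 peak in replicate 2 and no replicated H3K27me3 region.

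At the gene starts the histone marks separated the genes into 4 states. Both H3K27ac and H3K27me3, each in at least 2 libraries and within 1 kb, were found at 5 genes: Nrp1, Nrp2, Plxna1, Plxna4 and Sema3f. For the genes with a known start site this was 2 of 7, against 7.19% of genes by the same rule, and for those where either gene end was used 3 of 3, against 9.26%. H3K27ac alone was replicated at Plxna2 and Plxna3, H3K27me3 alone at Sema3d and Sema3e, and neither at Sema3a. Since the ganglion is a mixture, whether both marks lay in the same cells cannot be told apart from different cells carrying each. Without H3K27me3 replicate 3 the count of genes with both marks was 3. The H3K27me3 at Plxna1 rests on weak peaks of replicates 1 and 3, at 61.9% and 87.4% of their lists, which do not overlap each other. The replicate 1 peak has a −log10 q of 1.09, and with a −log10 q of at least 2 the genes with H3K27me3 near the start were 6, not 7.

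The start of Nrp2 had the best-ranked near-start peak of the 10 genes in H3K27ac replicate 1, Plxna2 in replicate 2 (best 6.64%) and Plxna1 in replicate 3 (best 0.758%). At Nrp2 the H3K27ac peaks stood at the best 6.40%, 6.79% and 2.44% of the lists of replicates 1 to 3, while the H3K27me3 peaks stood at 14%, 60.5% and 42.4%. H3K4me3 replicate 2 and POU4F1 replicate 1 also had peaks there, at the best 19.6% and 11.2%, and the POU4F1 peak covers part of the printed promoter. At the upper end of Plxna4 the H3K27me3 domain was broad, 1024, 2024 and 5117 bp in replicates 1 to 3, and at the best 3.0%, 21.0% and 7.50% of the lists, beside H3K27ac peaks at 34.5%, 32.2% and 11.3%.

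The H3K27me3 peaks at Sema3d and Sema3e were found in replicates 2 and 3 and not in replicate 1. At Sema3d they measured 2595 and 4273 bp and stood at the best 18.6% and 12.0% of the lists, and only a weak H3K27ac peak of replicate 3, at 93.1% of its list, lay within 1 kb. At Sema3e they measured 1110 and 909 bp and stood at 30.4% and 29.9%, with a POU4F1 replicate 1 peak over the start at 64.3% of its list. The start of Sema3a carried a single peak in the 14 lists, of ISL1_70 replicate 1. A replicated H3K27ac region, chr5:13399016-13399554, is centred 2.50 kb from it, beyond the 1 kb limit, with peaks of H3K4me3 replicate 2 and ISL1_26 replicate 1, so the absence of marks at Sema3a depends on that limit: within 5 kb, 8 of the 10 genes had replicated H3K27ac.

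Counting genes target by target, H3K27ac near the start in at least 2 libraries was found at 4 of 7 genes with a start site (48.4% of all genes) and at 3 of 3 by gene ends (50% of all genes). H3K27me3 was found at 4 of 7 (18.5%) and 3 of 3 (20.6%), and ISL1 at 3 of 7 (19.9%) and 1 of 3 (23.7%). POU4F1 was found at none by either rule (0.943% and 1.22%), although POU4F1 replicate 1 alone had a peak near the start of Nrp2 and Sema3e (10.2% of all genes) and at an end of Plxna4 (12%). H3K4me3 in both libraries was found at 3 of 7 (6.65%) and 2 of 3 (7.23%), and in replicate 2 alone at 5 of 7 (41.1%) and 3 of 3 (39.6%). Near-start ISL1 peaks came from ISL1_26 replicate 1 and ISL1_70 replicate 1, apart from 1 peak of ISL1_70 replicate 3 at Sema3f, and ISL1_70 replicate 2 had none.

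To compare the 2 histone marks across the whole window, the coverage ranks were turned into normal scores within each library (0 for a middle gene, in SD units) and tested with limma over all 21883 genes, H3K27ac minus H3K27me3, 3 libraries each. Plxna1 scored -0.08, 2.49 and 2.29 in H3K27ac replicates 1 to 3, and 0.45, -0.68 and -0.11 in H3K27me3 replicates 1 to 3. The high values came from H3K27ac replicates 2 and 3, and the groups overlapped. Nrp2 scored 1.13, 1.44 and 1.26 for H3K27ac and 0.47, 0.49 and -0.03 for H3K27me3. Sema3d lay the other way, at -0.79, -1.36 and -0.83 for H3K27ac and -0.48, 0.29 and 0.04 for H3K27me3. Windows without a peak share the lowest score of their library, and this floor differs between libraries. Sema3d had 0 peaks in H3K27ac replicates 1 and 2, and Plxna1 had 0 in H3K27me3 replicate 2. Their scores there, -0.79, -1.36 and -0.68, are such floors and not measured degrees of depletion. Nrp1 was alike in direction to Sema3d, at -0.10, -0.16 and -0.20 for H3K27ac and 0.15, 0.49 and 0.36 for H3K27me3.

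**Figure D5:**
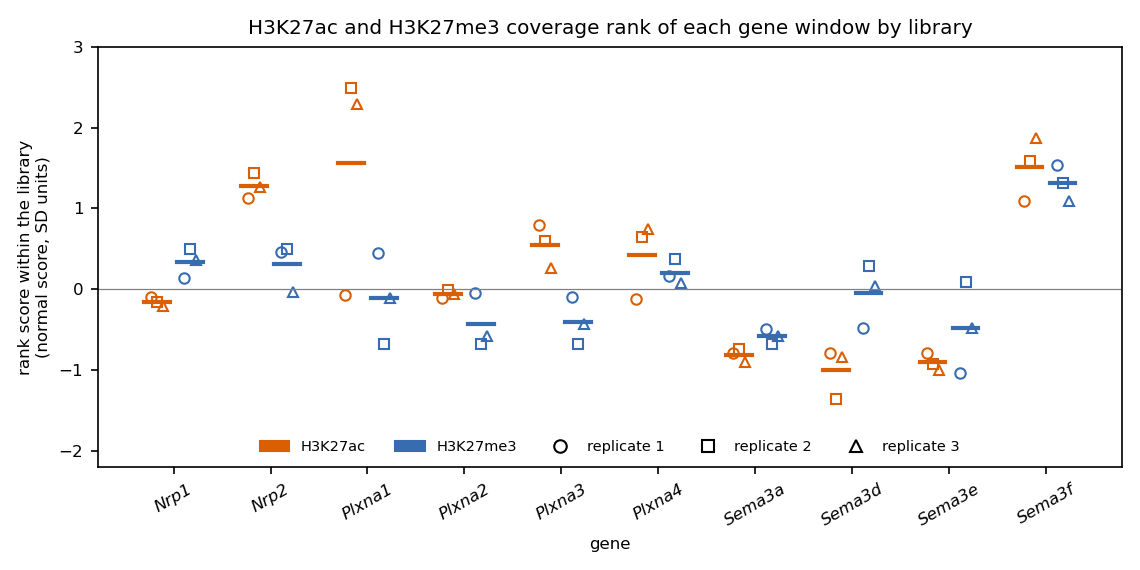
Rank score of window coverage (y axis, normal score within a library, SD units) for each gene, with H3K27ac (orange, left) beside H3K27me3 (blue, right); symbols are replicates and horizontal bars the mean of 3. The mean of H3K27ac lies furthest above that of H3K27me3 at Plxna1, Nrp2 and Plxna3 and furthest below it at Sema3d. Both marks are above 1 at Sema3f.

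None of the 10 genes passed the adjusted threshold of 0.05 in either direction, where 4.02% of all genes were called higher and 6.38% lower. An unadjusted limma p under 0.05 was found for 4 of the 10 and for 5934 of all 21883 genes. The differences were 1.68 ± 0.60 (SE) for Plxna1 (limma with Benjamini-Hochberg adjustment, adjusted p = 0.0985), 0.97 ± 0.32 for Nrp2 (adjusted p = 0.0749), 0.95 ± 0.32 for Plxna3 (adjusted p = 0.0859) and -0.94 ± 0.34 for Sema3d (adjusted p = 0.102). The other 6 lay between -0.49 (Nrp1) and 0.38 (Plxna2). The median over the 10 genes was 0.21, against -0.05 over all genes. Sema3f had high scores for both marks, 1.52 ± 0.40 for H3K27ac and 1.32 ± 0.22 for H3K27me3 (SD, n = 3 each), and Sema3a low scores for both, -0.81 ± 0.08 and -0.58 ± 0.09 (SD, n = 3 each). The small SDs of Sema3a rest partly on floor scores, since it had 0 peaks in H3K27ac replicate 1 and H3K27me3 replicate 2. As percentages of genes with lower coverage, its means were 13.8 ± 12.1 and 19.8 ± 17.2 (SD, n = 3 each).

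These results turned on single libraries. Without H3K27me3 replicate 1, the library that stood apart, Nrp2 and Plxna3 were called higher (limma adjusted p = 0.0416 and 0.0339) and Sema3d lower (adjusted p = 0.0301). Without H3K27ac replicate 1, Nrp2 and Plxna1 were called higher (adjusted p = 0.0415 and 0.00361). Calls over all genes rose too, from 879 higher and 1397 lower to 2643 and 2603 without H3K27me3 replicate 1. Without H3K27ac replicate 1 they were 1945 and 1890. Without any 1 of the other 4 libraries no member was called, and the limma adjusted p of Nrp2, Plxna1, Plxna3 and Sema3d ran from 0.145 to 0.378.

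The ISL1 and POU4F1 scores were compared in the same way, with 4 libraries against 2. Nrp2 averaged 1.83 ± 0.36 for ISL1 (SD, n = 4) and 0.52 ± 0.62 for POU4F1 (SD, n = 2). The difference of 1.30 was the largest of the 10 (limma adjusted p = 0.479), and the other 9 ran from -0.58 for Sema3f to 0.52 for Plxna3. Plxna1 was high for both factors, at 1.60 ± 0.85 for ISL1 (SD, n = 4) and 1.10 ± 0.14 for POU4F1 (SD, n = 2). No gene of the genome was called in either direction by limma (0% and 0%), while 2142 genes had an unadjusted p under 0.05, of the 10 only Nrp2.

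Another 47 genes of the semaphorin pathway, comprising 11 further receptors, 17 further ligands and 19 genes of the signalling chain, give the surroundings of the 10. Of these, 42 had a replicated ISL1 region (89.4%, against 62.1% of all genes), 45 an H3K27ac region (95.7%, against 77.2%), 32 an H3K27me3 region (68.1%, against 50.4%) and 4 a POU4F1 region (8.51%, against 3.98%). By role, ISL1 regions were found at 10 of 11 receptors and 15 of 17 ligands, and H3K27ac regions at 9 of 11 receptors and 17 of 17 ligands. The shares were thus 90.9% and 88.2% for ISL1, and 81.8% and 100% for H3K27ac. The highest mean ISL1 scores were at Dpysl4 (2.32) and Crmp1 (1.40), of the collapsin response mediator family, Sema6b (2.24) and Sema4d (1.40), transmembrane semaphorins, and Cdk5r1 (1.48), the activator of the kinase Cdk5. In the limma comparison of the marks, 7 of the 47 were called higher for H3K27ac (4.02% of all genes) and 3 lower (6.38% of all genes, a share like that of the 47), with a median difference of 0.34. The 3 lower ones were the vascular endothelial growth factor receptors Flt4 (-1.37 ± 0.39 SE, adjusted p = 0.0471), Kdr (-1.24 ± 0.32, adjusted p = 0.0313) and Flt1 (-1.22 ± 0.32, adjusted p = 0.0344), some of which pair with neuropilins in endothelium. At the other end stood Sema4c (2.30), Sema3g (1.93) and Sema6a (1.89).

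For the genes at both ends of the mark comparison, the protein-coding genes with the most similar profile over the 14 libraries were sought by Euclidean distance between rank scores. Nearest to Plxna1 were Vav2 (1.43), Tspan18 (1.60) and Chit1 (1.61), where the median distance to all genes was 5.98. Nearest to Sema3d were Arhgap6 (1.08), Lipi (1.08) and Cdh8 (1.14), where the median was 4.06.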

How the data were processed

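There were 14 peak lists, 1 for each library, with replicates not pooled. The deposited fold enrichment is a ratio of a peak's signal to its local background, computed by the authors' peak caller. The deposited −log10 p and −log10 q values and the summits come from the same caller. Per the file headers (the peak names), peaks were called with MACS2; the submitters' processing notes name FastQC, Bowtie2 and SEACR, with the build mm10, and give neither options nor versions. Read depth is unknown, lists were cut at a −log10 q of 1, and a longer list gives every gene more peaks, so fold and q values were used only within a list.

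Each peak was assigned to every gene window it overlapped, the gene with 50 kb on each side, from RefSeq GRCm38.p6, whose table has no exons or UTRs. Peaks of 1 target overlapping by 1 bp were merged, and regions in at least 2 libraries kept. The share of each window covered was turned into a rank-based normal score within each library. limma 3.58.1 (R 4.3.3) was fitted across all 21883 protein-coding genes, two-sided, with Benjamini-Hochberg adjustment. The fit was tested on simulated data, but these lacked the tied scores that windows without a peak share in the real lists. That test therefore does not cover such windows. Python 3.11.15, pandas 2.3.3 and scipy 1.17.1 made the other values. The start site was known for 7 genes, and either gene end was used for Plxna1, Plxna4 and Sema3f. Where libraries of a target share a source, p-values measure only technical spread. Counts of windows and regions have no test.

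All 10 genes are described. Named regions are, for each gene, the replicated ISL1 region in most libraries, then the one of best mean rank, together with other regions in 3 or 4 libraries that were chosen after their values were seen. Of the other pathway genes, up to 5 with the highest mean ISL1 score and up to 3 at each end of the mark difference are named. The genes, gene lists and rules were chosen with earlier results of these data known. The replicate numbers did not pair the H3K27ac and H3K27me3 libraries: deviations of same-numbered libraries correlated over genes at 0.04, -0.02 and 0.09.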

Additional observations from a re-analysis of the deposited data

Results flagged for a closer look

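One value stood apart by Dixon's test among the 4 ISL1 libraries. For Plxna3, 6.80% of protein-coding genes had lower window coverage in ISL1_70 replicate 1, the lowest of the 4, where ISL1_26 replicate 1 gave 48.7% and ISL1_70 replicates 2 and 3 gave 46.8% and 52.7%. That library had 1 peak in the window. Such a test marks about 1 group in 20 by chance.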

How the results depend on the processing

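Depth is unknown for every list and with 2 to 4 libraries a target 1 library can decide a count. Exons were not annotated, and 3 windows hold other genes.

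The 41 replicated ISL1 regions became 11 with at least 3 libraries, and 14 to 38 when 1 library was left out (14 without ISL1_26 replicate 1, 19 without ISL1_70 replicate 1). Those with H3K27ac, 30, became 10 with at least 3 libraries and 11 to 29 with 1 library left out, and those with POU4F1 replicate 1, 7, became 4 in the gene bodies alone and 4 to 7 with 1 library left out. Genes with a POU4F1 region, 1, became 0 with summit windows and 9 to 10 when a single list was left, and genes with an H3K4me3 region, 6, became 3 with summit windows. Near the start, ISL1 in at least 2 libraries at 4 genes became 1 within 250 bp and 9 within 5 kb. Leaving out 1 library, an alternative chosen after seeing the data, gave 1 to 4 genes for ISL1, 0 to 3 for POU4F1, 3 to 6 for H3K27me3 (7 with all), 6 to 8 for H3K4me3 (5 with all) and 3 to 5 for both marks.

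For H3K27ac minus H3K27me3, the 879 genes higher and 1397 lower became 355 and 745 with peaks per kb, 84 and 325 with all 14 libraries in the fit, and 44 to 2643 and 365 to 2603 with 1 library left out. Of the 10 genes, 0 were called higher in the fit as reported. With a −log10 q of at least 2 there were 2 (Plxna1 and Plxna3), beside 1187 of all 21883 genes. In gene bodies alone there was 1 (Plxna3), beside 709 of all genes. With 1 library left out 0 to 2 were called higher, while 0 to 1 were called lower. For ISL1 minus POU4F1, 0 genes higher and 0 lower became 70 and 38 with all 14 libraries, and 0 to 20 and 0 to 8 with 1 library left out. The replicate block, which rests on numbers that do not pair the samples, gave 807 genes higher and 1250 lower for the marks and called none of the 10. Signs changed for uncalled differences only. In gene bodies alone the Plxna4 mark difference was -0.046, and the ISL1 minus POU4F1 differences were -0.20 for Nrp1 and -0.13 for Plxna4. With 10 kb flanks that difference was -0.022 for Nrp1, -0.40 for Plxna3, -0.024 for Plxna4 and 0.12 for Sema3f. For Plxna4 it was -0.030 with peaks per kb, -0.12 with the replicate block and -0.041 without ISL1_70 replicate 3. With 1 library left out it ran from -0.32 to 0.49 for Plxna4, from -0.10 to 0.85 for Nrp1 and from -0.77 to 0.12 for Sema3e, each end of these ranges being reached without 1 of the POU4F1 libraries. The cause of these changes was not tested.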
